A study of Mus musculus with 12 samples.

Results

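Chromatin accessibility was described around 7 genes that mark the early embryo and pluripotent cells: Fbxo15, Dppa2, Dppa3, Dppa4, Dppa5a, Tcl1 and Tdgf1. They were 7 of 21938 protein-coding genes of the annotation (GENCODE M21 on GRCm38). For each gene, every peak and every listed interval that touched the gene body or the 20 kb on either side of it was taken. An interval here is a stretch made by merging the overlapping peaks of all 4 groups. The 7 windows held 46 of 273256 such intervals, and 2 of the 46 lay in the windows of both Dppa2 and Dppa4, which are neighbours.

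The members are textbook genes of the naive embryo rather than of fibroblasts. Fbxo15 encodes an F-box protein whose locus is known as a target of Oct4 and Sox2 and served as an early reporter of induced pluripotency. Dppa2 and Dppa4 encode paired SAP-domain proteins that bind chromatin of early embryonic genes. Dppa3 (Stella) is a maternal factor that protects DNA methylation in the zygote, and Dppa5a encodes a KH-domain RNA-binding protein. Tcl1 encodes a co-activator of the kinase Akt, and Tdgf1 (Cripto) encodes a cell-surface co-receptor for the ligand Nodal. In fibroblasts these genes are usually silent, and they are switched on at different times as cells acquire pluripotency. Zfp266, the gene disrupted here, encodes a KRAB zinc finger protein, a class that mostly recruits repressors to repeat-derived DNA.

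Omni-ATAC-seq, in which the Tn5 transposase inserts adapters into open chromatin, was carried out on 12 libraries of 50000 sorted cells each. The 4 groups of 3 libraries were MEF control, MEF KO, reprogramming control and reprogramming KO. The cells, labelled as strain 129, were mouse embryonic fibroblasts (MEFs) from E12.5 embryos, chimeras made by aggregating an ES cell line of 129 background with morulae of B6CBAF1 mice. Controls and KO cells alike carried Cas9, a Nanog-GFP reporter and a doxycycline-inducible cassette for Oct4, Sox2, Klf4 and c-Myc (OSKM) with mOrange. Controls received a non-targeting guide RNA and KO cells a lentiviral guide against Zfp266, so that each arm was a transduced pool and not a clone. All cells were collected 96 h after transduction. The reprogramming groups had then spent 72 h in 300 ng/ml doxycycline with 10 μg/ml vitamin C, mixed with wild-type 129 MEFs, and were sorted as mOrange-positive. Their medium was ES cell medium with leukaemia inhibitory factor, while the MEF groups stayed in medium with FGF2 and heparin. Effects of OSKM and of the medium therefore cannot be told apart between 72 h and MEFs. Nothing says that the libraries came from separate cultures, so p-values measure the spread between these samples, which may be technical.

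Peaks had been called on the merged replicates of each group, which gave 166486, 161687, 170135 and 163315 peaks in MEF control, MEF KO, reprogramming control and reprogramming KO. Peak values therefore carry no replicate error and were not tested. Read counts per library were at hand only for intervals that had passed the study's own threshold between KO and control, 480 in MEFs and 1608 at 72 h. The size factors of the 12 libraries ran from 0.63 to 1.46. Accessibility could not check the knockout: the promoter of Zfp266 held a peak of fold enrichment 5.46, 5.08, 5.03 and 4.52 in the 4 groups, in the order above, and no interval near it was listed. Of 8 fibroblast and mesenchymal genes, 8, 8, 7 and 7 had a promoter peak, and all 5 epithelial genes counted had one in every list. Over all coding genes the shares were 73.8%, 73.8%, 74.4% and 74.2%, so these counts do not tell cell types apart. Peaks on the Y chromosome numbered 61 and 62 in the MEF groups and 284 to 319 in the reprogramming groups, and their part in the comparisons of 72 h with MEFs was not tested. A smaller share of open cells and less opening per cell cannot be told apart in bulk ATAC-seq.

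The 7 loci fell into 2 kinds. Fbxo15, Dppa3, Dppa5a and Tdgf1 lay in windows with 13, 9, 12 and 8 intervals, around the median of 10 for all protein-coding genes. Dppa2, Dppa4 and Tcl1 lay in nearly bare windows of 3, 2 and 1 interval. Per 10 kb of window, Dppa5a had 2.92 intervals, Dppa3 2.05, Tdgf1 1.72, Fbxo15 1.5, Dppa2 0.537, Dppa4 0.396 and Tcl1 0.217, beside a median of 1.56 over all coding genes. By the position of the midpoint, 28 of the 46 intervals were intergenic, 16 intronic and 2 exonic.

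**Figure D1:**
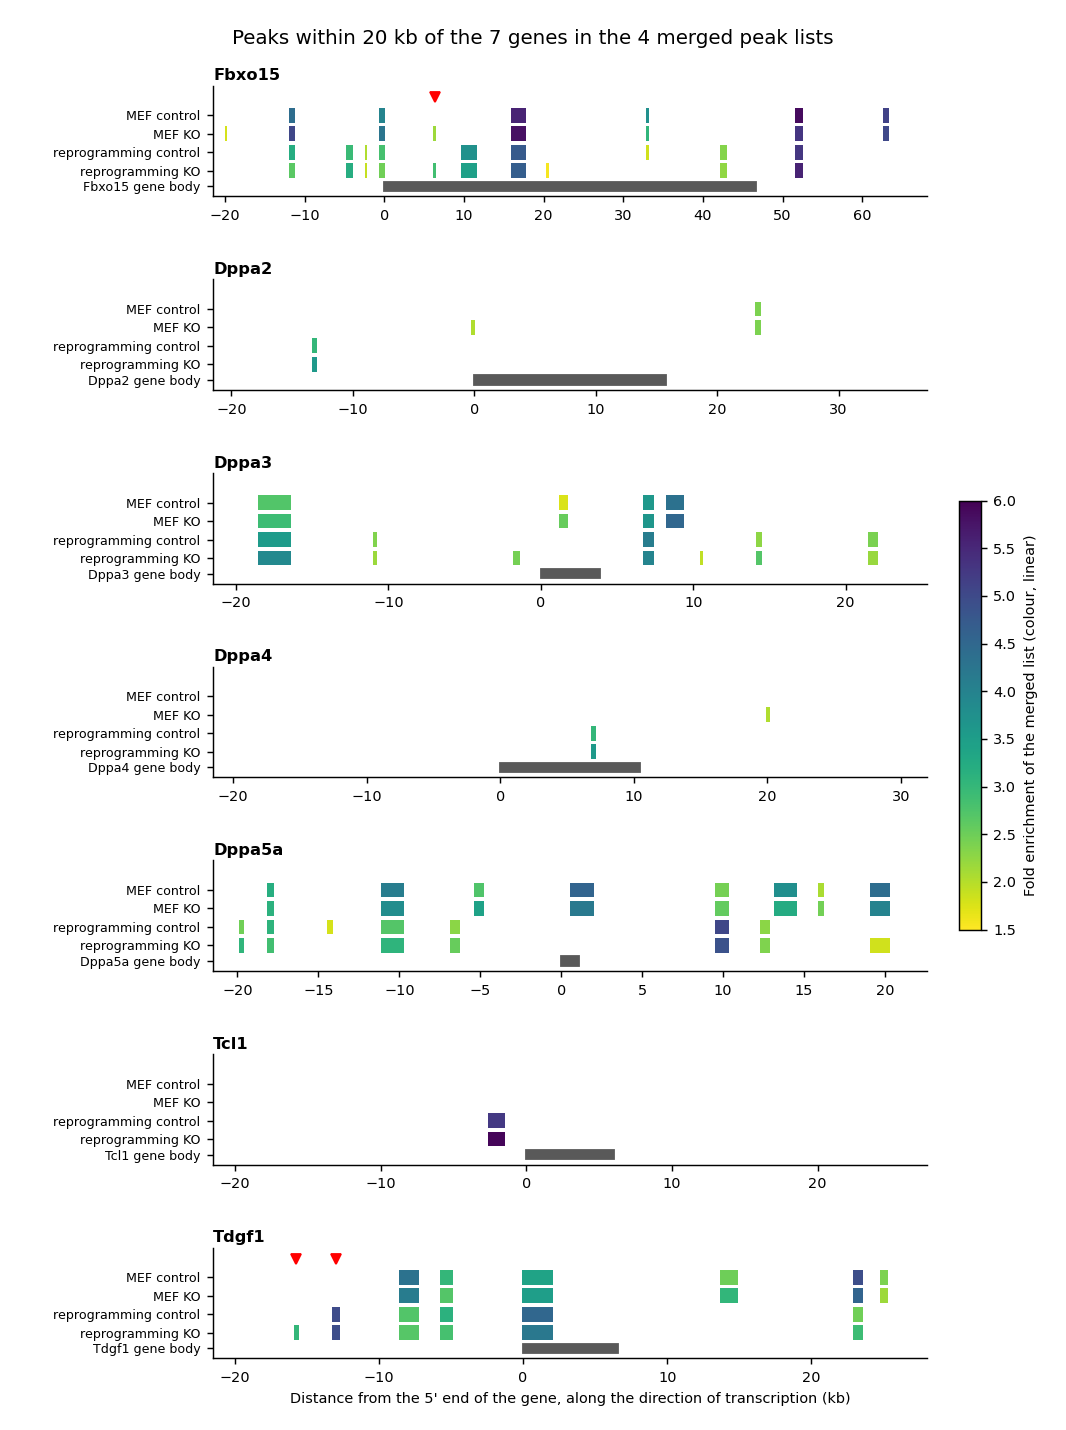
Each panel shows 1 gene, with the distance from its 5′ end in kb on the x axis and the 4 groups as rows. Bars are merged intervals that held a peak in that group, coloured by fold enrichment on a linear scale, the grey bar is the gene body, and red triangles mark the 3 intervals listed in a comparison table. Tcl1 has 1 bar in each reprogramming row and none in the MEF rows, and Dppa5a has a bar at its gene only in the MEF rows.

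Fbxo15 had the longest window, because its gene body spans 46692 bp of the plus strand (chr18:84934782-84981473). Its 5′ end was already accessible in MEFs. The start-site interval had a fold enrichment over background of 3.97 in MEF control and 4.26 in MEF KO, with −log10 q of 16.9 and 21.1. At 72 h the values were 2.83 and 2.47, with −log10 q of 7.53 and 4.63. The start-site values were thus lower at 72 h than in MEFs in both arms, as were the median promoter values of all coding genes, at 4.91 and 4.84 in MEFs and 4.0 and 3.89 at 72 h. The highest peak over the gene body, at an inner annotated start of Fbxo15 that also covers the start of Timm21 (a mitochondrial import subunit) on the opposite strand, ran from 4.67 to 5.82 in the 4 groups. The strongest distal interval, beyond the 3′ end, had 5.86, 5.31, 5.29 and 5.56.

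In the same window, 4 intervals appeared at 72 h in both arms and in neither MEF list. The broadest, 1960 bp long in an intron 10606 bp from the start, had a fold enrichment of 3.75 and 3.46 in the control and KO lists. The next, 4391 bp upstream of the start, had 2.95 and 3.20. A short interval 2278 bp upstream had 2.04 and 1.90, and an interval with its midpoint in an exon had 2.33 and 2.25. In the opposite direction, the outermost interval past the 3′ end, with 5.11 and 5.03 in MEF control and MEF KO, had no peak at 72 h.

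The arms differed at an intronic interval of 453 bp (chr18:84940857-84941309), 6301 bp from the start of Fbxo15, which held a peak in MEF KO and reprogramming KO and in neither control list. The fold enrichment was 2.15 in MEF KO and 2.86 in reprogramming KO. This presence pattern was found at 1 of 46 member intervals and at 0.0944% of all intervals. It was also the only member interval listed in both comparison tables. In MEF control the 3 libraries had normalised counts of 2.16, 7.33 and 1.91, from 3, 8 and 2 raw reads. In MEF KO they had 12.3, 18.5 and 16.2, from 15, 27 and 16 reads. At 72 h the control libraries had 14.5, 10.9 and 14.4, and the KO libraries 45.7, 70.1 and 61.9. In each context every KO library was above every control library, and the 72 h controls stood at about the level of the MEF KO libraries.

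In MEFs the mean rose from 3.80 ± 3.06 to 15.7 ± 3.14 (SD, n = 3 each), 4.12-fold. The log2 fold change was 2.07 ± 0.48 (SE), with an adjusted p of 0.0119 by edgeR's quasi-likelihood test, Benjamini-Hochberg adjusted over all 273256 intervals. It was 1 of 46 member intervals called as higher in KO in MEFs, beside 0.175% of all intervals. This call rested on few reads. Leaving out MEF control library 1 or 3, or MEF KO library 2 or 3, gave edgeR adjusted p of 0.763, 0.656, 0.219 and 0.0516, with log2 fold changes of 1.73, 1.80, 1.90 and 2.05. Leaving out MEF control library 2, the highest of the controls, moved the value the other way, to 2.88 (edgeR adjusted p 0.00390). DESeq2 on the same listed rows gave an adjusted p of 0.150 with 2.08. Size factors estimated from the listed intervals alone (TMM and median of ratios) lowered the log2 fold change to 1.04 and 1.02 and ended the call. Such factors centre a list in which 479 of 480 intervals were higher in KO, so a lowering was built in. At 72 h the mean rose from 13.3 ± 2.05 to 59.3 ± 12.4 (SD, n = 3 each), 4.47-fold, with a log2 fold change of 2.14 ± 0.25 and an edgeR adjusted p of 6.36e-13. That call held without any of the 6 libraries (highest edgeR adjusted p 1.30e-06). With the same TMM and median-of-ratios factors the 72 h value was 1.17 and 1.16, still called (edgeR adjusted p 0.00525 and 0.00598). Because intervals were listed for passing a threshold on these libraries, neither test is independent evidence.

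The KO effect on this interval did not differ detectably between contexts. The log2 difference, reprogramming minus MEF, was 0.07 ± 0.83 (SE), with an edgeR interaction adjusted p of 0.963 over the 70 intervals listed in both tables, of which 35.7% were called. The standard error was large beside the difference, so equal effects were not shown.

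**Figure D2:**
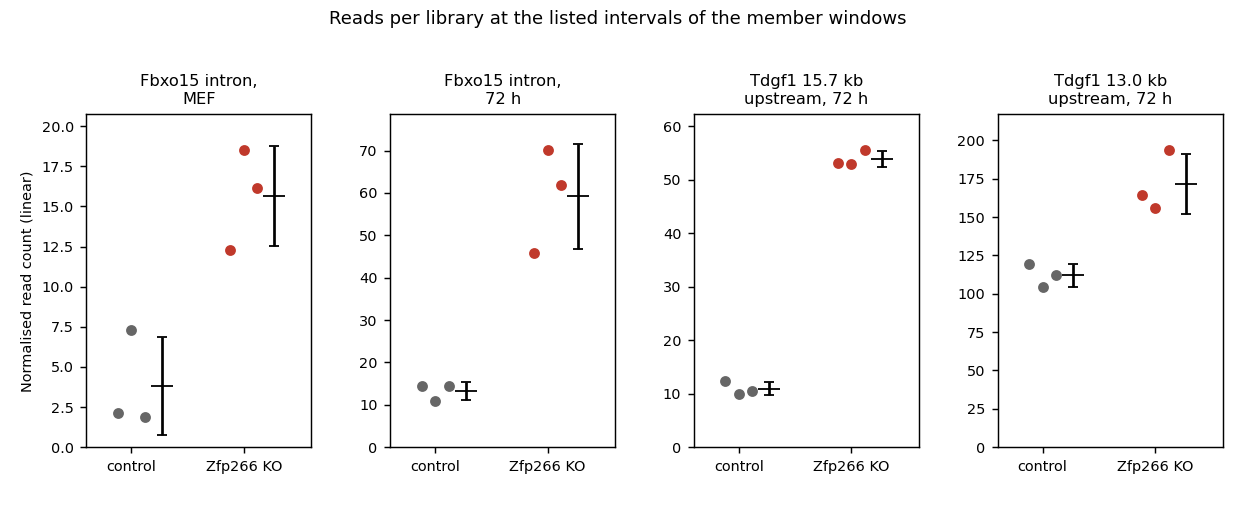
Normalised read counts (linear y axes, each with its own range) are shown for each library, control beside Zfp266 KO, at the Fbxo15 intron interval in MEFs and at 72 h and at the 2 listed Tdgf1 intervals at 72 h. Points are libraries and bars are mean ± SD (n = 3), and in all 4 panels the lowest KO library lies above the highest control library.

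Dppa3, a gene of 3863 bp on the plus strand (chr6:122626410-122630272), had no peak within 1 kb of its 5′ end in any list. An interval 1501 bp inside the gene, within 1 kb of a second annotated start, had a fold enrichment of 1.76 in MEF control and 2.54 in MEF KO and no peak at 72 h. The −log10 q of the MEF control peak was 1.17, close to the threshold of the list. The strongest interval of the window, 8791 bp downstream of the start, had 4.32 and 4.52 in the MEF lists and no peak at 72 h. Its neighbour 7084 bp downstream was present throughout, at 3.60, 3.63, 4.11 and 3.98.

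At 72 h, 3 weak intervals were gained near Dppa3 in both arms, with fold enrichments of 2.17 to 2.71. Another 2 were found only in reprogramming KO. The first was 461 bp long, 1612 bp upstream of the start (chr6:122624568-122625028), with a fold enrichment of 2.44 and −log10 q of 4.63, and the second, downstream of the gene, had 1.93 and 1.96. Neither was listed as changed, so no counts per library bear on them. The window also holds Gdf3, a ligand of the TGF-β family. A merged interval of 2111 bp over its start had 2.72 and 2.91 in the MEF lists and 3.54 and 3.88 at 72 h. Within 1 kb of a Gdf3 start peaks were found only at 72 h, so the MEF values belong to another part of this interval.

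Dppa2 and Dppa4 shared 1 interval with a peak at 72 h in both arms. It lay in an intron of Dppa4, 6999 bp from its start and 13176 bp upstream of Dppa2 (chr16:48290522-48290943), had no peak in MEFs, and had a fold enrichment of 3.03 and 3.58 in the control and KO lists at 72 h. Its −log10 q in control was 9.70. The 5′ end of Dppa4 had no peak in any group. The 5′ end of Dppa2 had a peak only in MEF KO, at 2.04 with −log10 q of 2.72, and an interval downstream of Dppa2 had 2.39 in both MEF lists and none at 72 h. No listed interval lay within 20 kb of either gene. The central 300 bases of the shared interval (chr16:48290583-48290882, GRCm38.p6, plus strand) are shown because it was the only site of this gene pair that opened by 72 h in both arms. Capitals would mark the fixed strings described below, and none was present.
Dppa4 intron interval: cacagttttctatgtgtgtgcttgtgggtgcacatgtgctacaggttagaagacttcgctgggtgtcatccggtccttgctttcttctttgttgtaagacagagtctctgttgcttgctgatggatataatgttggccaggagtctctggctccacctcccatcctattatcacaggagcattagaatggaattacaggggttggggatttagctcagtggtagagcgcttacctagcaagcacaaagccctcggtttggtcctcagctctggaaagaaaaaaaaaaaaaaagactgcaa

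Dppa5a, a gene of 1126 bp on the minus strand (chr9:78367052-78368177), went the other way. An interval over the downstream part of the gene body, 530 bp from the start (chr9:78366158-78367647), had a fold enrichment of 4.57 in MEF control and 4.19 in MEF KO, with −log10 q of 23.1 and 21.1, and no peak at 72 h in either arm. Another 3 intervals of its window were present in both MEF lists and lost at 72 h in both arms, with MEF values from 2.07 to 3.78. One more, in an intron of Gsta2 (a glutathione transferase gene), had 4.41 and 3.99 in MEFs, no peak in reprogramming control and 1.83 in reprogramming KO. Gains took place beside these losses. An interval 9955 bp downstream of the start had 2.45 and 2.59 in MEFs and 5.04 and 4.87 at 72 h, and 3 further intervals appeared at 72 h in both arms with 2.28 to 3.05. Among these, the interval with 2.28 in control and 2.37 in KO covers an annotated start of Gsta2. The peak over Ooep, a maternal oocyte gene in the same window, was present in all lists, at 4.10, 3.81, 2.71 and 3.07. The peak over Dppa5a was thus absent from both 72 h lists, and no interval near it was listed between them, the nearest being 169067 bp away at 72 h.

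Tcl1 was the simplest locus. The gene (chr12:105216750-105222793, minus strand) had no peak over its body or within 1 kb of an annotated start in any list. Its window held a single interval of 1131 bp, 2055 bp upstream of the start, with no peak in either MEF list. At 72 h it had a fold enrichment of 5.24 in control and 5.95 in KO, with −log10 q of 32.2 and 43.4. These fold enrichments were the highest of any member interval gained at 72 h, beside a median of 2.93 and 2.94 over all intervals with a peak in those lists. It was not listed between KO and control, and the nearest listed interval was 298587 bp away at 72 h.

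Tdgf1 (chr9:110939603-110946158, minus strand) combined a promoter with peaks in every list with distal sites that differed between contexts and arms. The promoter interval, 2128 bp long and reaching from the start into the gene, had a fold enrichment of 3.38 in MEF control and 3.49 in MEF KO. At 72 h it held 2 peaks, the higher at 4.51 in control and 4.21 in KO, while the peak at the start itself had 2.12 and 1.81. An interval 7901 bp upstream covers an annotated start of the neighbour Lrrc2. Its fold enrichment was 4.30 and 4.12 in the MEF lists and 2.72 and 2.69 at 72 h. At the 3′ side, 2 MEF intervals were absent at 72 h. The promoter as RefSeq places it (chr9:110946109-110946408, GRCm38.p6, minus strand, read in the direction of transcription) is shown because the peak lists place accessible chromatin on it in every group. The capitals mark 2 copies of GGGNGTGG, a string of the kind bound by Klf factors.
Tdgf1 promoter: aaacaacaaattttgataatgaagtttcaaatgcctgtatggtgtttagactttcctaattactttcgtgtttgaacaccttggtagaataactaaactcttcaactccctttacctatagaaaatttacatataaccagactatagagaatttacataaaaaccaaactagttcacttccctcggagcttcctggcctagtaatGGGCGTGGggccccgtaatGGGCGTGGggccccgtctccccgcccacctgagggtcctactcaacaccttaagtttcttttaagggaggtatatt

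Both listed intervals of Tdgf1 lay in introns of Lrrc2, 12978 and 15733 bp upstream of the Tdgf1 start and 1429 and 877 bp from the nearest annotated start of Lrrc2, so their assignment to Tdgf1 rests on distance alone. The nearer interval (chr9:110958868-110959405, 538 bp) was gained at 72 h in both arms. Its fold enrichment was 4.97 in the control list and 4.95 in the KO list, and it had no peak in MEFs. The 72 h control libraries had normalised counts of 119.6, 104.3 and 112.3 and the KO libraries 164.7, 156.2 and 193.7. From the authors' mean over 12 libraries, the 6 MEF libraries averaged 4.48. This gap between contexts was not tested. At 72 h control libraries averaged 112 ± 7.61 and KO libraries 172 ± 19.6 (SD, n = 3 each), 1.53-fold higher, with every KO library above every control library. The log2 fold change was 0.60 ± 0.12 (SE), with an edgeR adjusted p of 0.000194. The interval was listed for passing a threshold on these libraries, so this test is not independent evidence. With TMM and median-of-ratios factors over the listed intervals the log2 fold change was -0.37 and -0.38. Those factors centre a list in which 1522 of 1608 intervals were higher in KO, so a lowering was built in.

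The farther interval (chr9:110961711-110962072, 362 bp) had a peak in reprogramming KO alone, with a fold enrichment of 3.03 and −log10 q of 11.8. Control libraries had normalised counts of 12.3, 9.98 and 10.4 at 72 h, and KO libraries had 53.1, 52.9 and 55.6. The 6 MEF libraries averaged 2.75. The groups lay far apart with little spread within either: the mean went from 10.9 ± 1.22 to 53.8 ± 1.5 (SD, n = 3 each), 4.94-fold. The log2 fold change was 2.29 ± 0.27 (SE), with an edgeR adjusted p of 2.92e-13. This test is not independent evidence either, and all 1608 intervals listed at 72 h were called by it. With TMM and median-of-ratios factors over the listed intervals the log2 fold change was 1.32 with either, still called (edgeR adjusted p 0.00162 and 0.00183). In all, 3 of 46 member intervals were called as higher in KO at 72 h and none as lower, beside 0.557% of all intervals higher. The 3 came from the windows of 2 members, and 8.47% of all coding windows held at least 1 listed interval at 72 h. By log2 fold change the farther Tdgf1 interval ranked 59, the Fbxo15 interval 93 and the nearer Tdgf1 interval 1298 among the 1608 listed intervals. The median log2 fold change of those higher in KO was 1.03. With the authors' size factors, 1522 listed intervals were called higher and 86 lower at 72 h and 477 and 1 in MEFs. With TMM over the listed intervals, which centres that list, the split was 185 and 288 at 72 h and 44 and 51 in MEFs.

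The first 300 bases of the KO-only interval of Tdgf1 (chr9:110961711-110962010, plus strand) and the central 300 of the nearer interval (chr9:110958987-110959286, plus strand), both GRCm38.p6, are set side by side because they lie within 3 kb of each other and differ in repeat content. Capitals in the first mark a match to B1, a short interspersed repeat derived from the 7SL RNA gene. The first also holds GGGNGTGG on its minus strand, and the second holds none of the fixed strings and no B1 match.
Tdgf1 KO-only interval: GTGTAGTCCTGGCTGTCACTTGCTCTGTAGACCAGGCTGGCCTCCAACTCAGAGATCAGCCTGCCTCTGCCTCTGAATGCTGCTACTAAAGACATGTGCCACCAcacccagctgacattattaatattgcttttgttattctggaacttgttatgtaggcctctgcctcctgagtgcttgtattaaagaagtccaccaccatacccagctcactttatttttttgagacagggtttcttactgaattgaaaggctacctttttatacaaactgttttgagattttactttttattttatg
Tdgf1 gained interval: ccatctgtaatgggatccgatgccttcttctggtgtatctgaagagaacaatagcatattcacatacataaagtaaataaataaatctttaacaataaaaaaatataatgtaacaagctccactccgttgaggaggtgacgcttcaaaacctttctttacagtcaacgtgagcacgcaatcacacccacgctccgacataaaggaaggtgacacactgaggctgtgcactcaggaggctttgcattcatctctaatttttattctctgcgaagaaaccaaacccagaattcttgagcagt

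Repeats were frequent in these windows. The reference masks a median of 25.3% of the bases of the 46 intervals as repeats, beside 14.1% over all intervals. A B1 element that RefSeq annotates on chromosome 7 (138 bp, chr7:103823699-103823836) was compared with every interval by blastn at an e-value of 1e-05. It matched 12 of 46 member intervals (26.1%) and 7.79% of all intervals. The 7SL RNA transcript matched 3 (6.52%) and 1.03%. By gene, the B1 matches fell on 6 of the 9 Dppa3 intervals, 3 of the 12 of Dppa5a, 2 of the 13 of Fbxo15 and 1 of the 8 of Tdgf1, and on none near Dppa2, Dppa4 or Tcl1.

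Of the 3 listed member intervals, 2 held a B1 match. In the Fbxo15 intron interval 43.7% of bases were masked, and the match covered 78 bases at its edge nearer the Fbxo15 start with 89.4% identity. In the KO-only Tdgf1 interval 84.8% of bases were masked, and the match had 81.1% identity over 111 aligned positions. Among intervals within 20% of their lengths, 3.39% and 2.62% held a match. The nearer Tdgf1 interval, with the smaller KO effect, was 47.8% masked and held none. Among all listed intervals that were higher in KO, 53.9% of 479 in MEFs and 79.6% of 1522 at 72 h held a match, and 1.16% of the 86 lower in KO at 72 h did. Of the 6 member intervals with a peak in reprogramming KO and not in reprogramming control, 3 held a match, on Fbxo15, Dppa3 and Tdgf1, beside 1692 of all 13555 such intervals. Of the 2 with the reverse pattern, 0 did, beside 2.98% of all. Of member intervals lost at 72 h, 4 of 11 in control and 4 of 13 in KO held a match, beside 3.29% and 3.32% of all. Of those gained, 3 of 14 in control and 5 of 17 in KO did, beside 7.94% and 9.18%. A match is a description of the sequence and not of binding, and reads in repeats are harder to place uniquely.

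**Figure D3:**
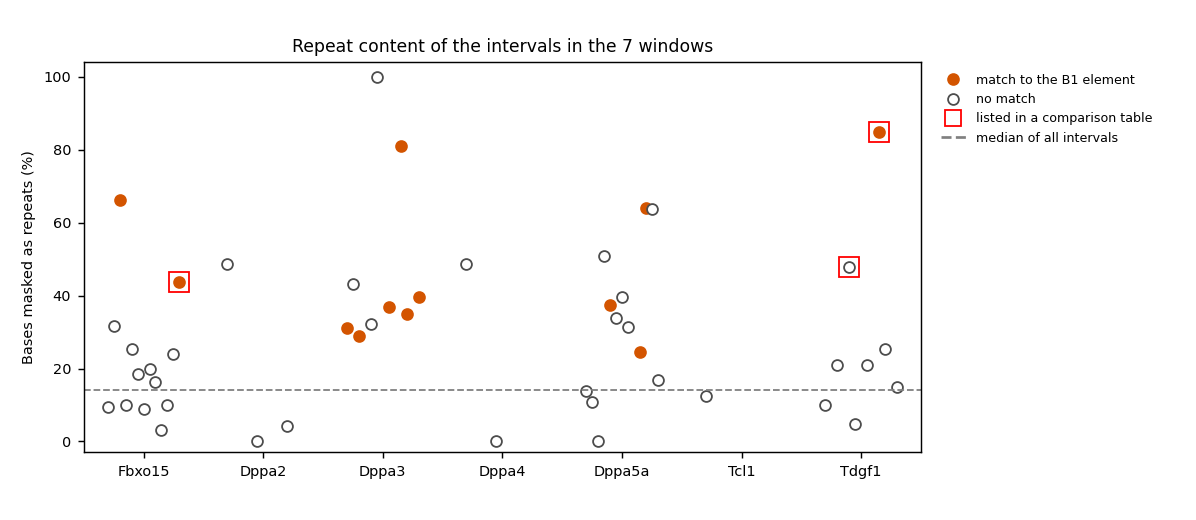
The share of bases masked as repeats (y axis, %) is shown for each interval by gene, and the 2 intervals shared by Dppa2 and Dppa4 appear under both. Filled points hold a match to the B1 element, red squares mark the 3 listed intervals, and the dashed line is the median of all intervals (14.1%). The listed intervals lie at 43.7%, 47.8% and 84.8%, and Dppa3 has 6 filled points.

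Fixed strings of factors relevant to OSKM and to fibroblasts were sought on both strands of the central 300 bases of each interval. The Oct octamer ATTTGCAT was found in 1 of 46 member intervals (2.04% of all intervals and 1.74% of all RefSeq promoters of the table used). It was the KO-only interval upstream of Dppa3, which also matched B1. The Sox string CATTGT was found in 5 member intervals (19.3% of all intervals, 12.6% of promoters), GGGNGTGG in 8 (11.8% and 17.6%), and the AP-1 string TGANTCA, bound by Fos and Jun in fibroblasts, in 6 (21.0% and 7.81%). TCAAGGTCA, the string of Esrrb, was found in none (0.573% and 0.423%). No string overlapped another in the sequences printed. Promoter sequences for 2 of the 7 members, Tdgf1 and Tcl1, were in the table used.

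Promoter peaks, within 1 kb of any annotated start, were found for 4, 5, 2 and 2 of the 7 members in MEF control, MEF KO, reprogramming control and reprogramming KO. Over all coding genes the shares were 73.8%, 73.8%, 74.4% and 74.2%. Fbxo15 and Tdgf1 had one in every list, Dppa3 and Dppa5a in the MEF lists, Dppa2 in MEF KO, and Dppa4 and Tcl1 in none. No member thus had a promoter peak at 72 h that it lacked in MEFs. Within 250 bp of a start the member counts were 2, 3, 2 and 2, with no drop from MEF control to 72 h. Of 23 other embryonic genes counted beside them, 18 had a promoter peak in MEF control already. All 6 core factors (such as Pou5f1, Sox2 and Nanog) had a promoter peak at 72 h in both arms, against 5 in MEFs. All 8 naive factors (such as Esrrb and Zfp42) did, against 6 in MEF control and 7 in MEF KO, and all 9 other early embryo markers did, against 7. That last list includes Gdf3 and Ooep, which lie in member windows. The genes with a promoter peak at 72 h and none in MEF control were Nanog, Zfp42, Nr0b1, Gdf3 and Tex19.1, and no test was made between these lists and the members. Of 6 markers of other cell types, 3, 3, 4 and 4 had a promoter peak in the 4 lists. Cdh5 of endothelium had one in the MEF lists alone, while Ptprc of blood cells (4.14 and 4.34) and Krt14 of skin epithelium (2.90 and 2.79) had one in both 72 h lists alone, and their part in these counts was not tested. Listed intervals at 72 h were found near 2 of 6 core factors, 1 of 8 naive factors and 3 of 9 other markers. They were also found near 1 of 8 fibroblast and mesenchymal genes, 0 of 5 epithelial genes and 0 of 6 markers of other cell types. Over all coding windows 8.47% held at least 1, and no test was made.

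For the 3 members with a promoter peak in some lists only, the coding genes closest in promoter pattern over the 4 lists were determined by Euclidean distance of log2(fold enrichment + 1). They were Kera, Plxnb3 and Ms4a5 for Dppa2 (distances 0.00617 to 0.0118), Cd79b, Rtp2 and Ripply1 for Dppa3 (0.0312 to 0.0905), and Sprr2k, Il1rl1 and A230072I06Rik for Dppa5a (0.0235 to 0.0385). Only 4 values enter each distance, so many genes share such patterns.

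The gains and losses at 72 h were counted over all 46 intervals. In control, 14 intervals were gained and 11 lost, beside 33.9% and 32.4% of all intervals. In KO, 17 were gained and 13 lost, beside 32.1% and 31.7%. The shares of members, 30.4% and 23.9% in control and 37.0% and 28.3% in KO, were within 10 percentage points of these. With only peaks of −log10 q of at least 5, 6 of the 46 were gained in control, a lower share than the 25.0% of all intervals, and 11 of the 46 in KO, beside 23.3%. A peak was present in all 4 lists at 13 intervals, in both MEF lists alone at 10, and in both reprogramming lists alone at 13. These were 28.3%, 21.7% and 28.3% of the members, beside 24.7%, 27.5% and 27.4% of all intervals. The 13 gained in both arms were spread over every member window: 4 near Fbxo15, 3 each near Dppa3 and Dppa5a, and 1 each at the Dppa2 and Dppa4 pair, Tcl1 and Tdgf1.

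Between arms, more member intervals had a peak in the KO list alone than in the control list alone. In MEFs 3 member intervals had a peak in KO only and 0 in control only, beside 3.65% and 4.79% of all intervals. These 3 had −log10 q of 1.48 to 3.39, so none had a −log10 q of at least 5. The 1 counted in MEFs at that limit was another interval, inside Dppa3, with −log10 q of 1.17 in control and 5.62 in KO. At 72 h, 6 had a peak in KO only and 2 in control only, beside 4.96% and 7.27%. The 6 were 2 near Fbxo15, 2 near Dppa3, and 1 each near Dppa5a and Tdgf1, with fold enrichments of 1.57 to 3.03. Only the intron interval of Fbxo15 and the farther interval of Tdgf1 among them were listed. The other 4 had −log10 q of 1.81 to 4.63. With only peaks of −log10 q of at least 5 in either list, 5 member intervals counted as KO only and 1 as control only at 72 h, beside 2.48% and 4.55% of all intervals. Of those 5, only the 2 listed intervals were among the 6, and the other 3, near Dppa3 and Dppa5a, had a control peak below that limit. With a reciprocal overlap of 50%, 9 member intervals counted as KO only and 5 as control only at 72 h, beside 9.67% and 12.1% of all intervals. With 1 merged list per group these counts have no error, and no test was made.

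**Figure D4:**
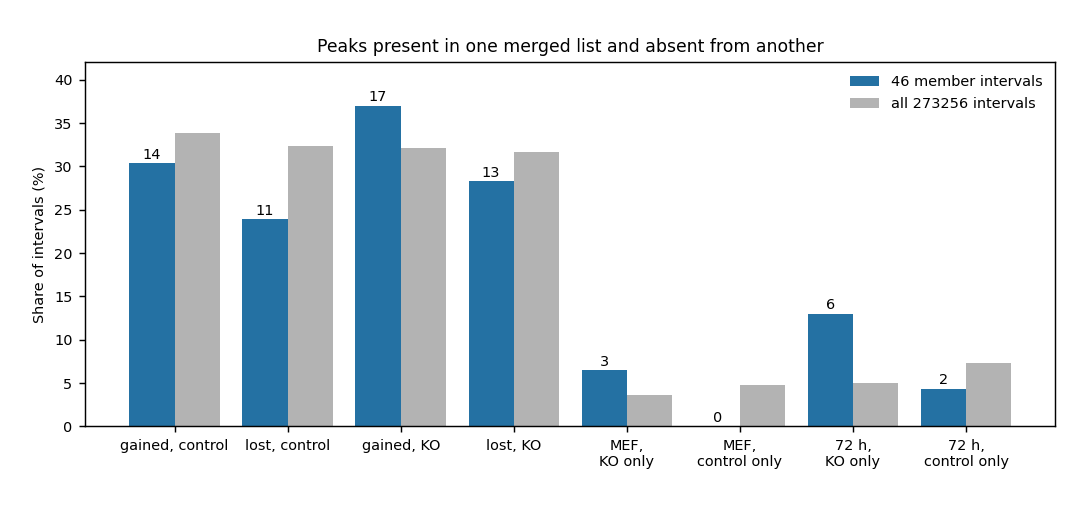
Bars show the share of intervals (y axis, %) with a peak in 1 list and none in another, for the 46 member intervals (blue, counts above the bars) and all 273256 intervals (grey). Gained and lost compare 72 h with MEFs in the same arm, and the last 4 pairs compare KO with control in the same context, where 6 of 46 members stand beside 4.96% of all intervals for KO only at 72 h.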

How the data were processed

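Per the submitters' processing notes and the study's methods, the authors aligned reads to GRCm38.p6 with BWA, removed duplicates with Picard, called broad peaks with MACS2 on merged replicates and tested intervals with DESeq2. Deposited values used here were the peaks' fold enrichment (a ratio) and −log10 q per group, and the raw counts and normalised counts (signal, raw counts divided by size factors) per library of intervals with adjusted p under 0.05. The deposited fold changes and p-values of the authors' comparisons were not used. Total reads per library were not given in the sources used here. Only listed intervals have counts, so nothing can be said of the spread between libraries at the others.

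The 4 peak lists were merged with bedtools 2.31.1 (any shared base), all 480 and 1608 listed intervals being among the merged ones. Size factors were recovered as raw over normalised count. KO was compared with control within each context by the quasi-likelihood test of edgeR 4.0.16, fitted on every listed interval of that context and adjusted over 273256 intervals. DESeq2 1.42.0, other size factors, a replicate block, a filter of 10 reads in 3 libraries and leaving out each library were alternatives, and the script was tested on simulated data. SE is the log2 fold change over the square root of F. The mean of the other context came from the authors' mean over 12 libraries. The sequence of the Tcl1 interval is not reported here. Other sequences were read from GRCm38.p6 and RefSeq promoters, and compared with BLAST+ 2.17.0. Replicates of a group differed by more than sampling noise (chi-square over degrees of freedom 1.13 to 1.69).

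All 7 members are named. Each listed, promoter and strongest distal interval and those gained in both arms are given, with the 3 nearest genes by promoter pattern. Members and lists were chosen with earlier results of these data known. The B1 query was added after the data were seen.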

Additional observations from a re-analysis of the deposited data

How the results depend on the processing

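Counts of intervals followed the width of the window: 10 kb on each side gave 28 intervals and 50 kb gave 88, in place of 46. With 10 kb, 1 member interval was called as higher in KO at 72 h instead of 3, because both Tdgf1 intervals lie farther out, and 50 kb gave 4. With promoters taken as 250 bp around starts, 2, 3, 2 and 2 members had a promoter peak in MEF control, MEF KO, reprogramming control and reprogramming KO. With only peaks of −log10 q of at least 5, 6 intervals were gained in control and 11 in KO (25.0% and 23.3% of all intervals), 1 had a peak in MEF KO only (2.86%), 5 in reprogramming KO only (2.48%) and 1 in reprogramming control only (4.55%). With a reciprocal overlap of 50%, 5 had a peak in MEF KO only (6.98% of all), 2 in MEF control only (8.26%), 9 in reprogramming KO only (9.67%) and 5 in reprogramming control only (12.1%). The B1 query matched 12 member intervals and the 7SL query 3.

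No member interval was called in MEFs (0 in place of 1) with DESeq2, with TMM or with median-of-ratios factors over the listed intervals. Both scalings centre a list in which nearly all intervals were higher in KO, and so lowered the fold changes. The Fbxo15 value in MEFs was then 1.04 and 1.02 on the log2 scale, and the nearer Tdgf1 interval reversed, to -0.37 and -0.38 (adjusted p 0.902 and 0.742), while the Fbxo15 and farther Tdgf1 intervals remained called at 72 h with lower values, 1.17 and 1.16, and 1.32 with either. Leaving out each library gave 0 to 1 called member intervals in MEFs and 3 at 72 h, and a context difference at Fbxo15 of -0.74 to 0.41.

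Labels give the same replicate numbers to the groups, but same-numbered control and KO libraries correlated above 0.1 in only 3 of 6 pairs (0.04 to 0.21), so the numbers were not taken as pairs, although 11 of 12 libraries correlated best with their own number. With the replicate block, 1 and 3 member intervals were called, as without it, with 2.01 for Fbxo15 in MEFs (edgeR adjusted p 0.000209) and a context difference of 0.17. The cause of these changes was not tested. Counts of 2 to 8 reads in the MEF controls at Fbxo15 limit that comparison.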
